A study of Caenorhabditis elegans with 4 samples.

Results

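The regions described here are PHA-4 binding peaks that both replicates of a chromatin immunoprecipitation and sequencing (ChIP-seq) experiment listed and that the list standing for the whole series left out. They were chosen by position alone, as nuclear peaks of replicate 1 that overlapped a replicate 2 peak by at least 1 bp and overlapped no peak of the combined list. There were 5041 of them among 19158 replicate 1 peaks, and they are called missing peaks below. The 4136 replicate 1 peaks that overlapped both other lists are called found peaks. Both sets together make up the 9177 nuclear replicate 1 peaks shared with replicate 2. The remaining nuclear peaks of replicate 1 comprised 9460 in neither other list and 493 in the combined list alone.

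PHA-4 is the Caenorhabditis elegans FoxA factor, a forkhead protein required to form the pharynx and also active in the gut. FoxA proteins bind DNA in the regulatory regions of genes of the digestive tract, and ChIP-seq with an antibody against a tag finds the places in the genome where such a protein sits. A peak caller turns the enriched places into a list, so which places appear depends on the caller and its threshold as well as on the protein.

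PHA-4 ChIP was represented by 2 libraries and Input, the unselected chromatin DNA, by 2 more, all prepared from hermaphrodites of strain OP37 at the L4 larval stage. The genotype of all 4 samples was unc-119(ed3) III with the integrated transgene wgIs37, which carries unc-119(+) and pha-4::TY1::EGFP::3xFLAG and was introduced by bombardment. The precipitated protein was thus the tagged product of the transgene, and the labelled genotype names no change in pha-4 itself. Worms were grown at 20 °C on E. coli, crosslinked whole with 2% formaldehyde and precipitated with antibodies against GFP. The lists therefore describe all PHA-4-expressing cells of the animal at once. The peaks of each ChIP library were listed separately under the source name spp_via_IDR, and the combined list was made with PeakSeq and held 3890 peaks, per the file headers. The Input libraries are not analysed here beyond their labels, and without read counts the sequencing depth behind each list is unknown. The labels do not say whether the replicates were separate cultures, so the agreement between them may be technical.

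Overlap with the 3 lists chose the missing peaks, and the lists come from the same 2 libraries. Scores, ranks, positions and distances are therefore given as descriptions without a test. Percentages carry exact (Clopper-Pearson) 95% intervals over peaks, which cover counting error only and treat neighbouring peaks as independent. Positions refer to WormBase WS220. No genome or annotation of that build was used, so the peaks are named by position, without genes or sequences.

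Missing peaks were the larger part of what the replicates shared. Of the 9177 shared peaks, 5041 were missing from the combined list (54.9%, interval 53.9% to 56.0%), against 75.8% of all 19130 nuclear replicate 1 peaks. Counted from the other side, 5041 of the 9163 nuclear replicate 2 peaks that overlapped replicate 1 were missing (55.0%, interval 54.0% to 56.0%). The equal counts are a coincidence, since the numbers per chromosome differ. The combined list held 3890 peaks, fewer than the shared peaks, and the part of its size in these shares was not tested. All 5041 missing peaks of replicate 1 were 316 bp wide, the width of nearly every peak of that list. They fell on 4833 different replicate 2 peaks, and joining those that overlapped one another left 4857 regions, of which 181 held more than 1 missing peak. For 5010 of the missing peaks, the replicate 2 peaks they overlapped also lay outside the combined list. The other 31 (0.615%) touched a replicate 2 peak that reached into a combined peak.

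Chromosomes differed widely in how much of the shared set was missing. Chromosome I had the highest share, with 1099 of 1463 shared peaks missing (75.1%, interval 72.8% to 77.3%). Chromosome V had the lowest, with 417 of 1402 (29.7%, interval 27.4% to 32.2%). Between them lay X with 1237 of 2002 (61.8%, 59.6% to 63.9%), II with 852 of 1454 (58.6%, 56.0% to 61.1%), III with 783 of 1493 (52.4%, 49.9% to 55.0%) and IV with 653 of 1363 (47.9%, 45.2% to 50.6%). The intervals of neighbours in this order overlapped for X and II and for III and IV, and the other neighbours had separate intervals. Rows of the replicate 2 list gave the same order, from 75.9% (73.6% to 78.1%) on I to 30.0% (27.7% to 32.5%) on V. The order was not particular to shared peaks. Over all nuclear replicate 1 peaks, shared or not, the share in no combined peak was 87.1% on I, 79.0% on X and 78.5% on II. It was 74.4% on III, 73.7% on IV and 61.3% on V. The combined list held 309 peaks on I, 514 on II, 681 on III, 676 on IV, 1055 on V and 655 on X. Found peaks were of similar number, at 364, 602, 710, 710, 985 and 765 in the same order. The part played by the number of combined peaks in these shares was not tested.

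Number per length showed the same contrast. Chromosome I held 72.9 missing peaks per Mb and 24.2 found peaks per Mb. Chromosome V held 19.9 missing peaks per Mb and 47.1 found peaks per Mb. The X chromosome was close to I in missing peaks, at 69.8 per Mb, while its found peaks stood at 43.2 per Mb. Chromosomes I and X together thus carried the densest missing sets but differed in found ones. As a share of the set, I held 21.8% of missing peaks (20.7% to 23.0%) and 8.80% of found peaks (7.95% to 9.71%), with 15.0% of the nuclear length. V held 8.27% of missing peaks (7.53% to 9.07%) and 23.8% of found peaks (22.5% to 25.1%), with 20.9% of the length. For II, III and IV the missing peaks numbered 55.8, 56.8 and 37.3 per Mb and the found peaks 39.4, 51.5 and 40.6 per Mb.

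**Figure D1:**
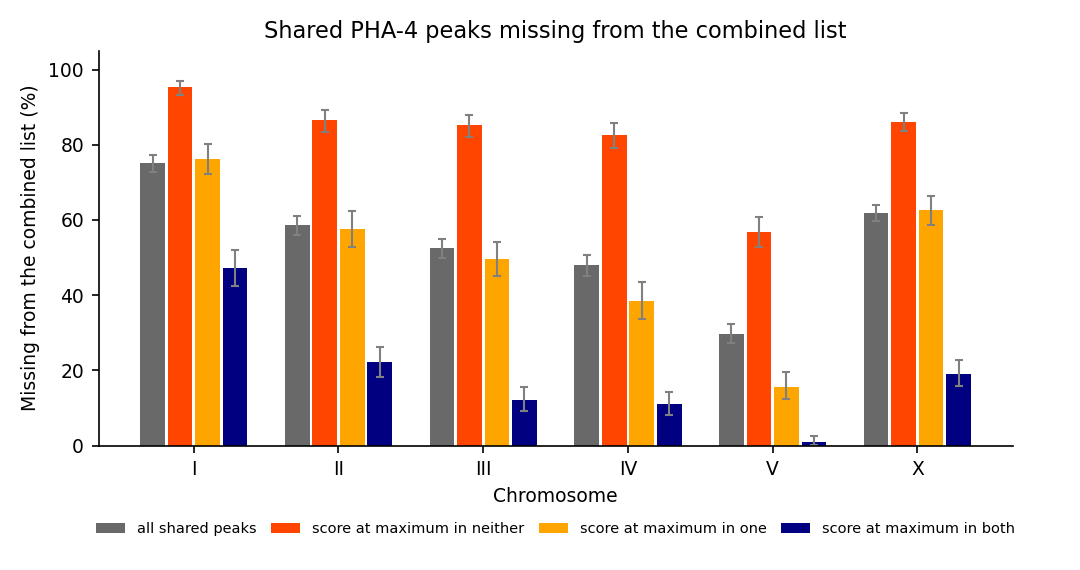
Percentage of shared replicate 1 peaks missing from the combined list on each chromosome (x axis), for all shared peaks and by whether the deposited score stood at the maximum of its list in neither, 1 or both replicates; bars are percentages and whiskers exact 95% intervals over peaks. Chromosome I is highest and V lowest in every class, from 95.3% on I and 56.7% on V with neither score at the maximum to 47.2% and 0.836% with both.

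The authors gave each replicate peak a score that is capped, so that many peaks share the maximum of 3.96 in replicate 1 and 3.97 in replicate 2. Its meaning is not stated in the files, and it is used here to order peaks within a list, with the deposited peak number to order ties. Rank 1 is the highest. All 4569 peaks tied at the maximum in replicate 1 and all 4615 in replicate 2 are ordered by that number alone, whose meaning is not stated either, so ranks up to these places carry no score difference. Missing peaks stood lower in both lists than found peaks. Their median score was 3.26 in replicate 1 (interquartile range 2.22 to 3.69) and 3.24 in replicate 2 (1.86 to 3.97). Found peaks had medians at the maximum in both lists. In ranks, missing peaks had a median of 8314 in replicate 1 (interquartile range 4790 to 12870) and 8012 in replicate 2 (4596 to 12832). For found peaks the medians were 2824.5 and 2654 in those lists. The ranges overlapped: the best missing peaks ranked 164 in replicate 1 and 144 in replicate 2, and found peaks reached ranks 19150 and 19500.

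**Figure D2:**
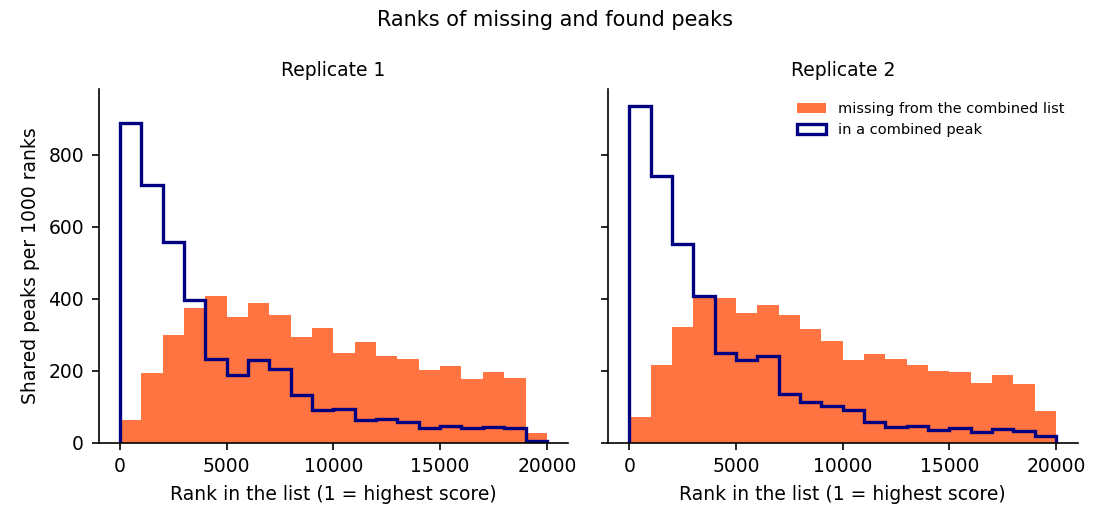
Number of missing peaks (filled) and found peaks (outline) per 1000 ranks in replicate 1 (left) and of their largest-overlap partner in replicate 2 (right), with rank 1 as the highest score. Found peaks crowd the first ranks of both lists, whereas missing peaks spread over the whole of both, around medians of 8314 and 8012.

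Not all missing peaks were weak. In replicate 1, 1179 of them (23.4%, interval 22.2% to 24.6%) stood at the maximum score, against 23.7% of all nuclear replicate 1 peaks, and 2728 of the found peaks did (66.0%, 64.5% to 67.4%). Of the 9460 replicate 1 peaks in neither other list, 440 stood at the maximum (4.65%, 4.24% to 5.09%). By this measure the missing peaks lay near the share of the whole list, between found peaks and those in neither other list. Both scores were at the maximum for 498 missing peaks (9.88%, 9.07% to 10.7%), against 28.1% of all shared peaks and 50.3% (48.8% to 51.9%) of the found peaks. A further 1451 missing peaks (28.8%) had 1 score at the maximum, and 3092 (61.3%) had neither. Ranks of the replicates agreed loosely within each set. Spearman's rho between the ranks was 0.29 over the 5041 missing peaks and 0.42 over the 4136 found peaks, a description across peaks of the same 2 libraries, in which the lower limit of each list bounds both ranks. Order among tied peaks rests on the peak number, and 50.3% of found but 9.88% of missing peaks were tied in both lists. These rho values are therefore not directly comparable.

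The difference between chromosomes was also present within each score class. Among peaks with both scores at the maximum, 205 of 434 on I were missing (47.2%, interval 42.5% to 52.1%) and 3 of 359 on V (0.836%, 0.173% to 2.42%). The shares on the other chromosomes were 95 of 430 on II (22.1%), 98 of 513 on X (19.1%), 52 of 432 on III (12.0%) and 45 of 411 on IV (10.9%). Among peaks with neither score at the maximum, 546 of 573 were missing on I (95.3%, 93.2% to 96.9%) and 346 of 610 on V (56.7%, 52.7% to 60.7%), while II, III, IV and X lay between 82.6% and 86.5%. Taking the rows from replicate 2 gave 47.3% on I and 0.838% on V in the class with both scores at the maximum. The 3 exceptions on V were at V 8460907 to 8461222 (ranks 2263 in replicate 1 and 3245 in replicate 2), V 11982331 to 11982646 (ranks 3751 and 4242) and V 12467939 to 12468254 (ranks 4438 and 4282). They lay 916, 1890 and 612 bp from the nearest combined peak. These were singled out after their values had been seen.

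A finer view came from the worse of the ranks of each pair, that is, the lower place it reached in either list. Of 453 shared peaks that ranked in the first 1000 of both lists, 2 were missing, both on chromosome I. For worse ranks of 2001 to 4000, 129 of 228 shared peaks on I were missing (56.6%, 49.9% to 63.1%) and 1 of 158 on V (0.633%, 0.0160% to 3.48%). In the same band the share was 30.7% on II, 22.9% on X, 19.2% on III and 14.2% on IV. Peaks of this band and above it were all tied at the maximum score in both lists, so its place rests on the peak number. For worse ranks of 8001 to 10000 it was 81.8% on I (74.8% to 87.6%) and 33.8% on V (26.4% to 41.7%). Past rank 16000 it was 90.8% on I (86.0% to 94.4%), 91.0% on X (87.1% to 94.1%) and 52.1% on V (44.8% to 59.3%). On V, 0 of 66 shared peaks in the first 1000 ranks and 0 of 89 at ranks 1001 to 2000 were missing, for which the exact intervals end at 5.44% and 4.06% (3 counts of the total would be 4.55% and 3.37%).

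The place in the lists at which peaks were missing as often as found varied accordingly. Shared peaks of each chromosome were ordered by worse rank and read in windows of 100. On I the first window with at least 50% missing spanned worse ranks 1725 to 2638. It spanned 3602 to 4533 on X, 3600 to 4772 on II, 4472 to 5981 on III and 5925 to 6973 on IV. On V it was not reached before ranks 10763 to 12186. The 100 best-ranked shared peaks of I already included 15 missing ones, those of II included 1, and those of III, IV, V and X included 0. These best-ranked peaks and the windows of I and X lay wholly among peaks tied at the maximum score in both lists. The windows of II and III began among them. Order there rests on the peak number, so these places are not score thresholds.

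**Figure D3:**
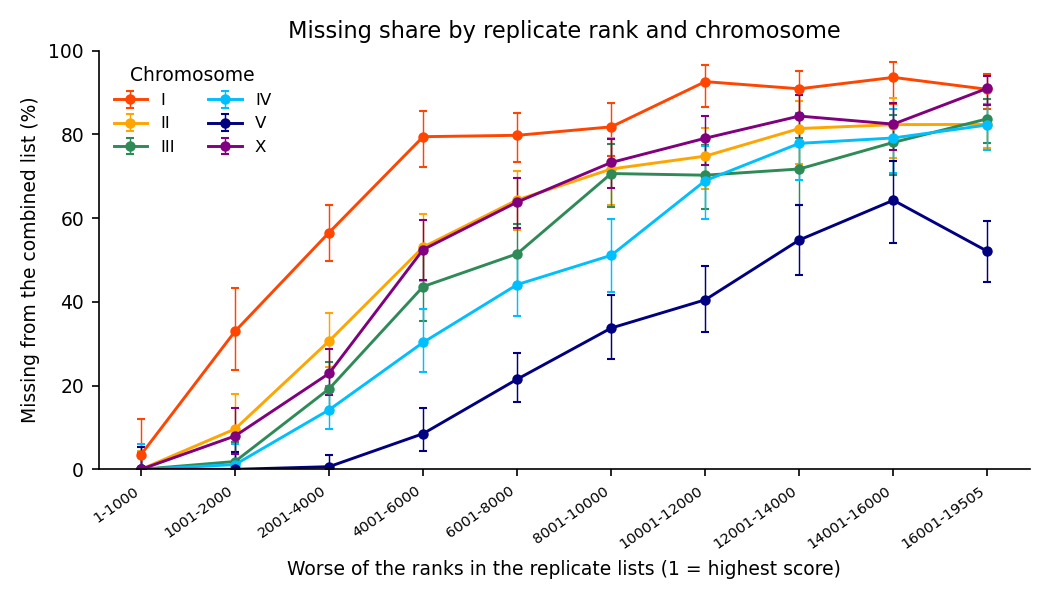
Percentage of shared peaks missing from the combined list (y axis) by the worse of the ranks in the replicate lists (x axis, rank 1 is the highest score) for each chromosome; points are percentages and whiskers exact 95% intervals over peaks. At worse ranks of 2001 to 4000 the share is 56.6% on I and 0.633% on V, with the other chromosomes between 14.2% and 30.7%.

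The combined list itself differed between chromosomes in number but ended at nearly the same q-value on each. Its weakest q-value was 0.00985 on I and 0.00982 on V, and lay between 0.00977 and 0.00995 on the other chromosomes. The median q-value was 0.000968 on I, where the list held 309 peaks, and 0.000243 on V, where it held 1055. Found peaks of I were better placed in the replicate lists than those of V, with median worse ranks of 3174 and 6762. Missing peaks followed the same order, with median worse ranks of 9677 on I and 13044 on V. Combined peaks also differed in width, with a median of 420 bp on I and 340 bp on V, and 451 bp on X. A wider peak is easier to overlap, and the part played by width in the shares was not tested.

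The missing share was next followed along the chromosomes. Each chromosome was divided into 10 equal segments. On I the share missing ran from 69.3% in segment 4 to 82.4% in segment 10, with a median of 75.8%. On V it ran from 27.8% in segment 5 to 35.2% in segment 7, with a median of 30.1%. Every segment of I was above every segment of the other 5 chromosomes, and every segment of V was below every segment of the others. The ranges were 48.3% to 67.3% on II, 47.2% to 57.1% on III, 39.8% to 57.7% on IV and 55.2% to 66.7% on X, with at least 46 shared peaks in each segment.

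**Figure D4:**
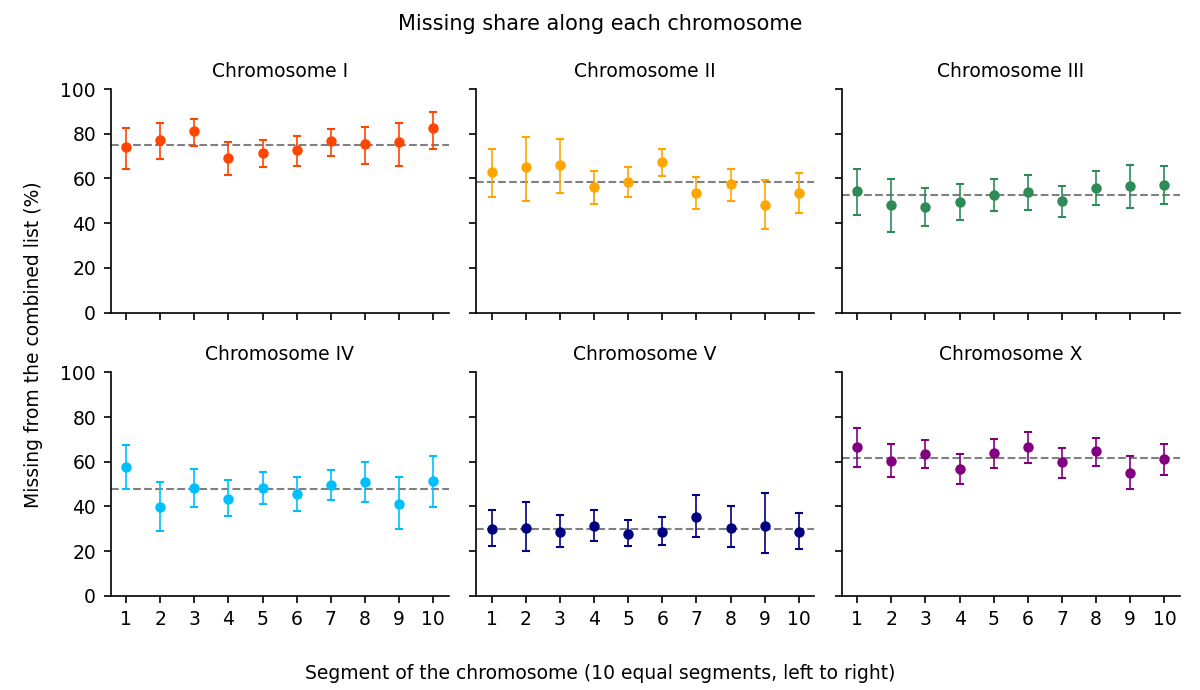
Percentage of shared peaks missing from the combined list in each of 10 equal segments of the 6 chromosomes, from the left end to the right end; points are percentages, whiskers exact 95% intervals over peaks and the dashed line the share of the whole chromosome. The points of each chromosome scatter around its own level, which is highest on I (75.1%) and lowest on V (29.7%).

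Over the autosomes together, the central 1/3 and the part outside it were close in the share missing. C. elegans autosomes have a gene-dense centre and more repetitive arms that recombine more often. The central 1/3 used here was a fixed share of the length, not a mapped boundary of the arms. The central 1/3 of the 5 autosomes held 1711 of 3804 missing peaks (45.0%, interval 43.4% to 46.6%) and 1552 of 3371 found peaks (46.0%, 44.3% to 47.7%). The intervals of the sets overlapped. Expressed as the share missing, the values were 52.4% (50.7% to 54.2%) in the centre and 53.5% (51.9% to 55.1%) outside it. Chromosome I had the widest gap, with 71.2% (67.6% to 74.5%) missing in the centre and 78.7% (75.6% to 81.5%) outside, and these intervals were separate. The central 1/3 of I held 44.7% (41.7% to 47.7%) of its missing peaks and 54.7% (49.4% to 59.9%) of its found peaks. In the central 1/3 and outside it, the share missing was 60.0% and 57.2% on II, 50.9% and 53.6% on III, and 48.1% and 47.8% on IV. It was 29.4% and 30.0% on V, and 60.4% and 62.6% on X.

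Most missing peaks had no combined peak within 1000 bp. The median distance to the nearest combined peak, counted as the bases between them, was 5937 bp (interquartile range 1737 to 17506 bp). Only 784 missing peaks (15.6%, interval 14.6% to 16.6%) had a combined peak within 1000 bp and 80 (1.59%) within 200 bp, whereas 1096 (21.7%) were more than 20000 bp away. For found peaks the nearest combined peak other than those they overlapped was at a median of 3395.5 bp (interquartile range 1119 to 12830 bp). It lay within 1000 bp for 22.7% of them (21.4% to 24.0%), more than for missing peaks. Within 200 bp it lay for 0.556% (0.353% to 0.833%), fewer than for missing peaks. Among the 9460 replicate 1 peaks in neither other list, 13.1% (12.4% to 13.8%) had a combined peak within 1000 bp and 2.17% within 200 bp. The nearest combined peak was on the right of 398 and on the left of 386 of the missing peaks within 1000 bp of one (50.8% right, 47.2% to 54.3%), and the interval includes 50%.

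Distance followed the chromosome too. Missing peaks of I had a median distance of 14145 bp (95% interval of the median 12162 to 16014 bp) and those of V of 2656 bp (2231 to 3407 bp). The medians were 5947.5 bp on II, 5872 bp on X, 4461 bp on IV and 4185 bp on III. The combined list was sparsest on I, with 20.5 peaks per Mb, and densest on V, with 50.5 per Mb, and the part of that density in this order was not tested. Among found peaks, the next combined peak was at a median of 7220 bp on I and 2170 bp on V. The top-scored missing peaks were spread over all distances. Both scores were at the maximum for 7.14% (5.44% to 9.18%) of missing peaks within 1000 bp of a combined peak and for 12.0% (10.2% to 14.1%) of those more than 20000 bp away. Peaks of I made up 10.1% of the near class and 38.7% of the distant class.

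**Figure D5:**
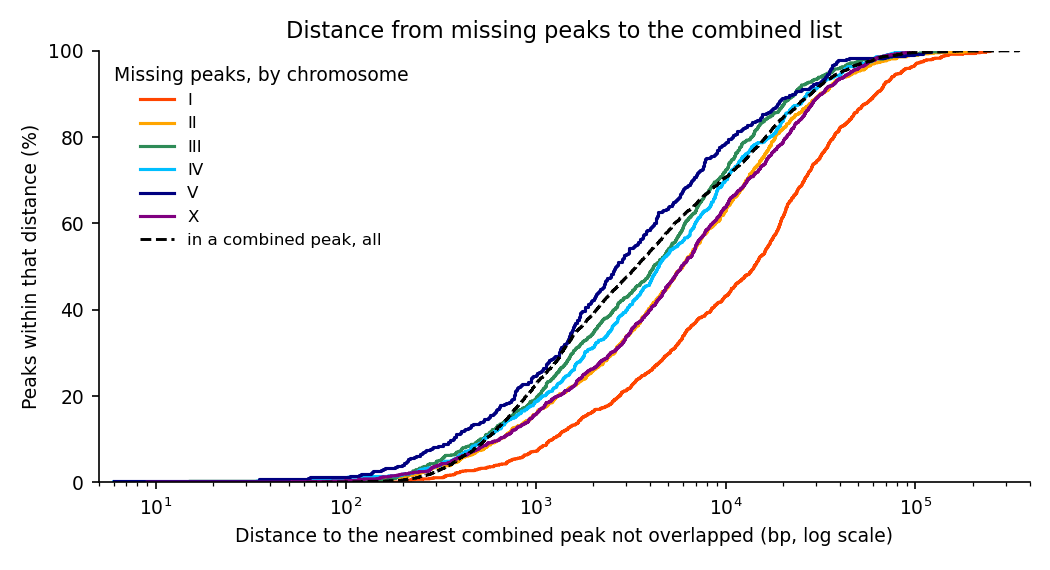
Cumulative percentage of missing peaks (y axis) by distance to the nearest combined peak (x axis, log scale) for each chromosome, with the distance of all found peaks to the next combined peak they did not overlap as a dashed line. The curve of I crosses 50% farthest to the right, at 14145 bp, and that of V farthest to the left, at 2656 bp.

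Agreement on position between the replicates was compared within score classes. Over all missing peaks the midpoints of the replicates were a median of 79 bp apart, against 50 bp for found peaks. Where both scores were at the maximum, the medians were 38 bp for 498 missing peaks and 36 bp for 2081 found peaks. Midpoints within 100 bp made up 85.5% (82.1% to 88.5%) of these missing peaks and 86.6% (85.1% to 88.0%) of these found peaks. These intervals overlapped. Where neither score was at the maximum, the medians were 99.5 bp for missing and 86 bp for found peaks.

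Missing peaks stood less close to other shared peaks. Another shared midpoint lay within 500 bp of 539 missing peaks (10.7%) and of 959 found peaks (23.2%). The median distance to the nearest other shared midpoint was 2082 bp for missing and 1155 bp for found peaks. Several replicate peaks can lie inside a single wide combined peak, and the part of this in the spacing of found peaks was not tested.

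Read along the chromosomes, missing peaks formed runs in which no found peak intervened. Of the 5041 missing peaks, 2169 (43.0%, interval 41.7% to 44.4%) belonged to 289 runs of at least 5, and 714 stood alone between found peaks. A higher missing share makes longer runs by itself, and the chromosomes followed it: 74.2% of missing peaks on I were in such runs, 49.1% on X, 39.1% on II, 29.4% on III, 23.4% on IV and 7.43% on V. The 5 longest were all on I. The longest, I 2312221 to 2727937, spanned 416 kb and held 33 missing peaks, 5 of them at the maximum score in both replicates, with 0 combined peaks inside. The run at I 3401246 to 3514598 held 20 missing peaks over 113 kb. Runs of 19 were at I 6838184 to 6986765, I 9732705 to 9826592 and I 9963789 to 10116911. The first of these 3 and the second each had 1 combined peak inside, which no shared peak overlapped, and the third had 0.

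The 20 missing peaks with the best worse rank comprised 15 on I, 3 on II and 2 on X, with 0 on III, IV and V. All 20 stood at the maximum score of 3.96 in replicate 1 and of 3.97 in replicate 2. Their worse ranks ran from 498 to 1421. By worse rank, 217 found peaks stood better than the first of them and 663, including those 217, better than the last. Their distance to the nearest combined peak had a median of 9522.5 bp and ran from 333 to 55894 bp, with 4 of the 20 within 1000 bp.

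The first was I 6799521 to 6799836, at rank 498 in replicate 1 and rank 423 in replicate 2. Its replicate 2 partner was I 6799537 to 6799856, a shift of midpoint of 18 bp, and the nearest combined peak was 24582 bp away. The second, I 8970015 to 8970330, stood at ranks 692 and 726 in replicates 1 and 2, with the nearest combined peak 33589 bp away. These were the pair of missing peaks within the first 1000 ranks of both lists. The third was II 11675951 to 11676266, at rank 1024 in replicate 1 and rank 316 in replicate 2, 22908 bp from a combined peak. All 3 were at the maximum score in both lists, and their order among the tied peaks rests on the deposited peak number.

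The peak I 3787619 to 3787934 was at rank 1214 in replicate 1 and rank 144 in replicate 2, the best replicate 2 rank of any missing peak. Ranks at I 9720945 to 9721260 were 1074 and 616, and it lay 333 bp from a combined peak of 1148 bp. On X, the peak X 8019670 to 8019985 had rank 598 in replicate 1 and rank 1369 in replicate 2, and lay 550 bp from a combined peak. The other on X was 13514389 to 13514704, with ranks 1414 and 612 and the nearest combined peak 11689 bp away.

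The pair at I 10178251 to 10178566 (ranks 591 and 1253) and I 10190907 to 10191222 (ranks 736 and 1083) had their nearest combined peaks 55894 and 43958 bp away. I 8851698 to 8852013 (ranks 1332 and 808) and I 5314568 to 5314883 (ranks 986 and 1168) lay 374 and 703 bp from combined peaks of 935 and 1197 bp. The remaining 7 on I had worse ranks between 1089 and 1421. The other 2 on II were at II 602977 to 603292 (ranks 1281 and 986) and II 11578326 to 11578641 (ranks 1312 and 1138).

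On chromosomes without a peak among these 20, the best-ranked missing peaks came later. On III it was III 7234168 to 7234483, at ranks 1640 in replicate 1 and 1127 in replicate 2, 23476 bp from a combined peak. On IV it was IV 2676326 to 2676641, at ranks 1737 and 1697, with replicate midpoints 6 bp apart and the nearest combined peak 32022 bp away. On V it was the peak at 8460907 named above, with a worse rank of 3245.

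The missing peaks farthest from any combined peak lay in 1 stretch near the right end of chromosome I. I 14070797 to 14071112 was 249297 bp from the nearest combined peak and stood at the maximum score in both replicates (ranks 3559 and 3366). I 14101066 to 14101381, 219028 bp away, was at the maximum in replicate 1 (rank 3105) and scored 2.74 in replicate 2 (rank 8935). The other 3 of the 5 farthest, at I 14074275, I 14051692 and I 14050495, scored 1.78, 1.57 and 1.29 in replicate 1 and 3.46, 3.57 and 2.25 in replicate 2. The gap was bounded by combined peaks at I 13815816 to 13816141 on the left and I 14320410 to 14320727 on the right.

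The edge of the rule lies between a gap and an overlap of a few bases. The missing peaks nearest to a combined peak were IV 9990993 to 9991308 and V 4801167 to 4801482, each 6 bp from one, followed by peaks on II, III and X at 9 bp. Their ranks ran from 6442 to 15542 in replicate 1 and from 7406 to 18918 in replicate 2. The found peaks with the smallest overlap were V 8129785 to 8130100 with 2 bp, V 10248320 to 10248635 with 3 bp and V 8648598 to 8648913 with 10 bp, then peaks on III and X with 11 bp. Their ranks ran from 6357 to 19150 in replicate 1 and from 2513 to 13384 in replicate 2.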

How the data were processed

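Peak lists of 2 PHA-4 ChIP libraries and 1 combined list were analysed, with samples grouped by their titles. The authors deposited a q-value per combined peak, made with PeakSeq and lifted over to WS220 from a build not named, per the file headers. They deposited a score per replicate peak, source spp_via_IDR, per the file headers. The aligner, versions, thresholds, use of Input and the way replicates were combined are none of them given in the sources used here. Shares carry exact Clopper-Pearson 95% intervals and medians carry order-statistic intervals, both over peaks. Neither allows for depth, which is unknown.

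Each replicate 1 peak was paired with the replicate 2 peak of largest overlap. Distances count the bases between peaks, and chromosome lengths are the largest coordinate in any list. Mitochondrial peaks were left out of all sets but kept in the ranking. The members and lists were chosen with earlier results of these data known. Named peaks were the 20 members with the best worse rank, the 5 farthest from a combined peak, the 5 longest runs and 5 on each side of the edge of the rule; the best member of each chromosome and the members of V at the maximum in both lists were added after values were seen. Sequences, genes and motifs need a WS220 genome and were not analysed here. The overlap scripts were tested on simulated data. Alternatives were a reciprocal overlap of 50%, gaps of 200 or 1000 bp counted as present, higher-ranked peaks alone, rows of replicate 2, each replicate alone and a central 50% of the autosomes. Computations used scipy 1.17.1, numpy 2.4.6 and pandas 2.3.3 under Python 3.11.15, and plots matplotlib 3.10.9.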

Additional observations from a re-analysis of the deposited data

Results flagged for a closer look

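The rule for the missing peaks left out the mitochondrial genome, where 27 of the 28 replicate 1 peaks overlapped a replicate 2 peak and the combined list held 0 peaks. Neither the missing nor the found set held these peaks, but they kept their places in the ranking.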

How the results depend on the processing

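Chromosome I had the highest and V the lowest missing share under all 9 settings that gave a share per chromosome. Of 62 values recomputed, 27 stayed within the interval of the reported value (for the number, within 1.5 times) and 35 moved; the cause of a move was not tested except where the setting itself fixes it. Restriction to the higher-ranked 50% of both lists left 1986 members, 38.1% of shared peaks, of which 27.5% were on I and 5.09% on V; 46.6% of autosomal members were central, the median distance was 7035 bp and 25.1% were at the maximum in both. Restriction to as many highest-ranked peaks as the combined list holds left 345 members (15.8% of shared peaks), with 45.2% on I, 0.29% on V, 47.9% central, a median distance of 9610 bp and, by construction, 100% at the maximum. A reciprocal overlap of 50% gave 52.1% missing, a median distance of 6487 bp and 12.5% at the maximum in both. Counting a gap of up to 1000 bp as present gave 46.4% missing, 24.0% on I, 7.38% on V, 43.3% central and a median distance of 8111 bp. A central 50% of the autosomes held 64.4% of autosomal members. The share of shared peaks missing was 52.5% (51.0% to 53.9%) inside it and 54.1% (52.1% to 56.0%) outside. Without replicate 1 or without replicate 2, that is, not asking for the other list, there were 14501 to 14913 members, 75.8% to 76.6% of peaks, with 18.3% to 18.6% on I, 12.9% to 13.1% on V, 40.7% to 41.2% central and a median distance of 6971 to 7235 bp; the share at the maximum in both has no value there. The setting that also asked that the overlapped replicate 2 peaks miss the combined list was chosen after seeing the data and moved none of the 7 values. No paired analysis was possible because the Input samples have no list here and no result comes from a test. The effect of depth, which is unknown, was not tested.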
